A study of Homo sapiens with 2 samples.

Results

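The SOX genes described here are 10 members of the family, SOX2, SOX4, SOX5, SOX6, SOX8, SOX9, SOX11, SOX12, SOX13 and SOX18, taken from 19775 genes that the arrays measured. They were chosen by symbol: every probe set whose platform annotation gave exactly 1 of these symbols was used, 34 probe sets of 54675 in all. The list was drawn up with the levels and differences of these arrays known, so what follows is a description of them. The arrays are Affymetrix U133 Plus series oligonucleotide arrays and the RNA came from the line 293T, which descends from human embryonic kidney and carries the SV40 large T antigen. The miR-941 group was 1 array, made from cells transfected with synthetic miR-941, whose lysate went through immunoprecipitation of Ago2, the Argonaute protein that carries microRNAs. The control group was 1 array, made from cells transfected with a scrambled oligonucleotide. Each oligonucleotide was used at 30 nmol/l. The control sample is called an Ago2 precipitate in its title but carries an antibody entry of nonimmune IgG beads, so if that entry is right, the transfection and the antibody differ together and cannot be told apart.

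SOX proteins bind DNA through an HMG box, a fold that enters the minor groove and bends the helix, and they act on their targets together with partner factors. They are sorted into groups by the likeness of that box. Group B1 (with SOX2) keeps neural and pluripotent progenitors. Group C (SOX4, SOX11 and SOX12) acts in progenitors and in young neurons. Group D (SOX5, SOX6 and SOX13) has a coiled coil for pairing and no activation domain of its own. Group E (SOX8, SOX9 and SOX10) works in cartilage, testis and neural crest, and in the mouse SOX8 and SOX9 act in the branching ureteric bud of the kidney. Group F (SOX7, SOX17 and SOX18) is known from blood and lymph vessels.

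The treated cells received synthetic miR-941, and the RefSeq sequence of its mature form is shown for reference. RefSeq (GRCh38.p14) lists 5 copies of the mature miR-941 on chromosome 20, plus strand, with 1 shared sequence of 23 bases, and the first copy lies at chr20:63919495-63919517. The capitals mark the seed, bases 2 to 8, which a microRNA uses to pair with its targets.
hsa-miR-941: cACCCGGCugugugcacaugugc
Matches to this seed in SOX transcripts were not analysed here.

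The deposited numbers, 1 for each probe set, were read as log2 expression values, and a difference is the miR-941 value minus the control value. With 1 array per group there is no replicate, no test and no p-value. Neither array holds input RNA, so recovery in the precipitate, the amount of an mRNA per cell and the number of cells that carry it cannot be told apart. The array medians were 0.98 (miR-941) and 0.92 (control), and Pearson's r across all probe sets, which are not independent, was 0.992. A probe set counted as detected if its 2 values averaged more than 0.92, which is the midpoint of such averages across the array without its control probe sets, and a gene was read from its brightest probe set. A probe set can pass through 1 array alone, and its difference then leans towards that array. Probe sets differ in how strongly they bind, so levels are compared between arrays and not between genes.

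Of the 10 SOX genes 8 were detected, where 66.5% of all genes were. A gene is read from its brightest probe set, so genes with more probe sets pass more readily. The 10 SOX genes have 34 probe sets, and all 19775 genes have 41091. The detected ones were SOX2 of group B1, SOX4 and SOX12 of group C, SOX5, SOX6 and SOX13 of group D, and SOX8 and SOX9 of group E. SOX11 and SOX18 were below the detection level on every probe set they have. SOX11 read 0.22, 0.19 and 0.09 on its 3 probe sets, each value the same on the miR-941 array and on the control array. SOX18, a factor of lymph vessels, read 0.53 on the miR-941 array and 0.34 on the control array on its only probe set. These readings set no upper limit on the mRNA, since a probe set may bind weakly.

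**Figure D1:**
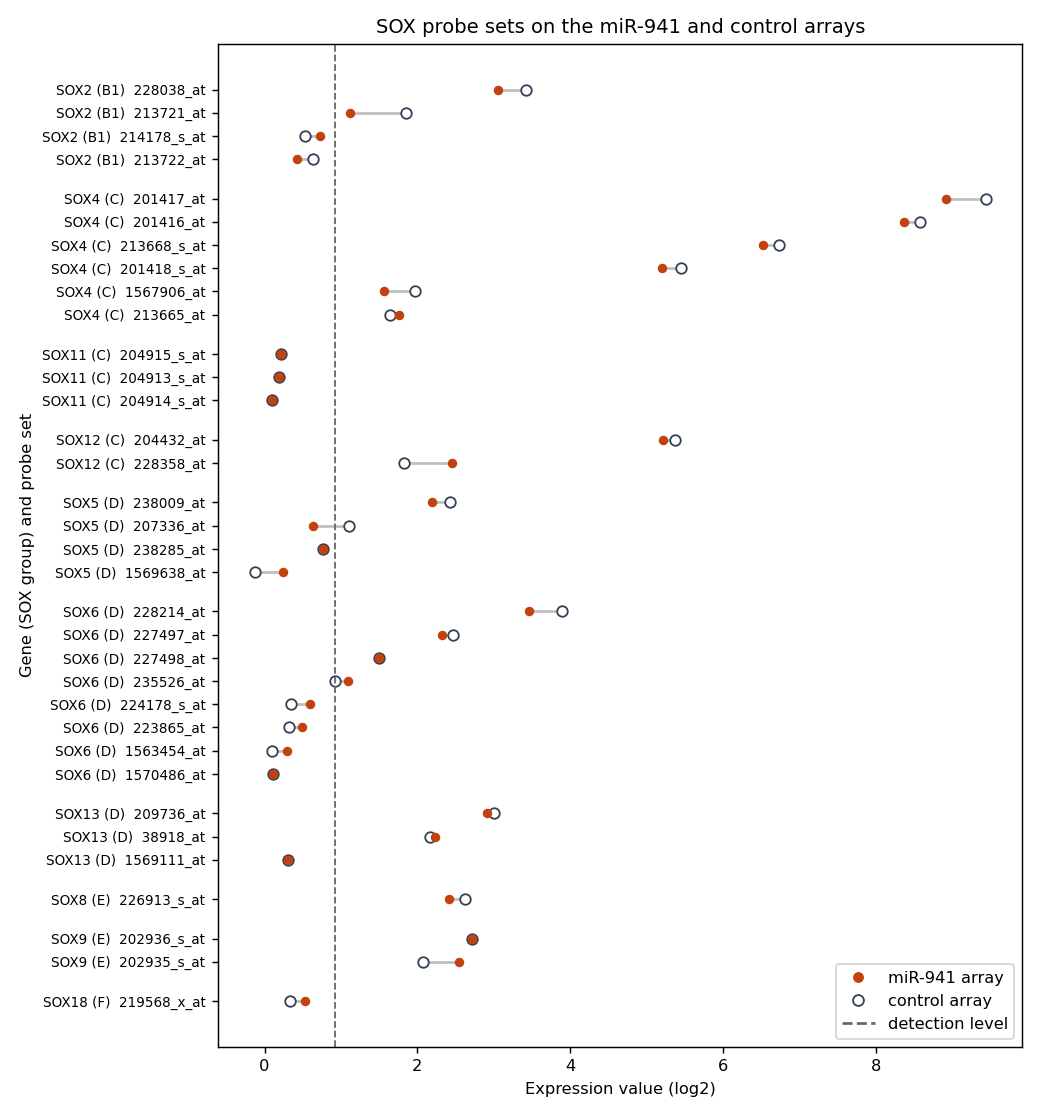
Expression value (log2, horizontal axis) of each of the 34 probe sets of the 10 SOX genes, with filled points for the miR-941 array, open points for the control array and a dashed line at the detection level of 0.92. All 3 SOX11 probe sets and the SOX18 probe set lie left of the line on both arrays, and 5 of the 6 SOX4 points of the miR-941 array lie left of their control points.

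On the brightest probe set of each gene, 7 of the 8 detected SOX genes were lower on the miR-941 array and SOX9 was equal, while 42.4% of the 13150 detected genes were lower. Subtracting each array's median made 58.7% of all detected genes lower and all 8 of the SOX genes, since that scaling moves every gene down by 0.06. That contrast was in view when the list was made, so nothing is read from the count. None reached a 2-fold difference, which 0.517% of detected genes did, and none reached 1.5-fold, which 5.82% did. The median difference of the 8 was -0.22, beside 0.00 for all detected genes. Read by the median over each gene's detected probe sets, 6 of the 8 were lower and 2 higher, beside 43.1% of all detected genes lower. The 6 were SOX2, SOX4, SOX5, SOX6, SOX8 and SOX13, the 2 were SOX9 and SOX12, and the median of the 8 was then -0.14. Averaged over all probe sets of a gene, 5 were lower (43.5% of all genes detected by that average were) and SOX6, SOX9 and SOX12 higher, with a median of -0.05. The control probe set for the 5' end of actin mRNA read 6.49 on the miR-941 array and 7.15 on the control array (-0.66), while that for the 3' end differed by -0.04, and the 5' and 3' controls of GAPDH differed by -0.19 and 0.05. The middle controls of actin and GAPDH differed by -0.37 and -0.07. Control M10098 differed by -0.45 (3'), -0.44 (5') and -0.08 (middle), and control M27830 by 0.23 (3'), -0.48 (5') and -0.10 (middle). Some controls were thus lower at the 5' end only and M10098 at both ends. The part of these control differences in the SOX results was not tested.

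**Figure D2:**
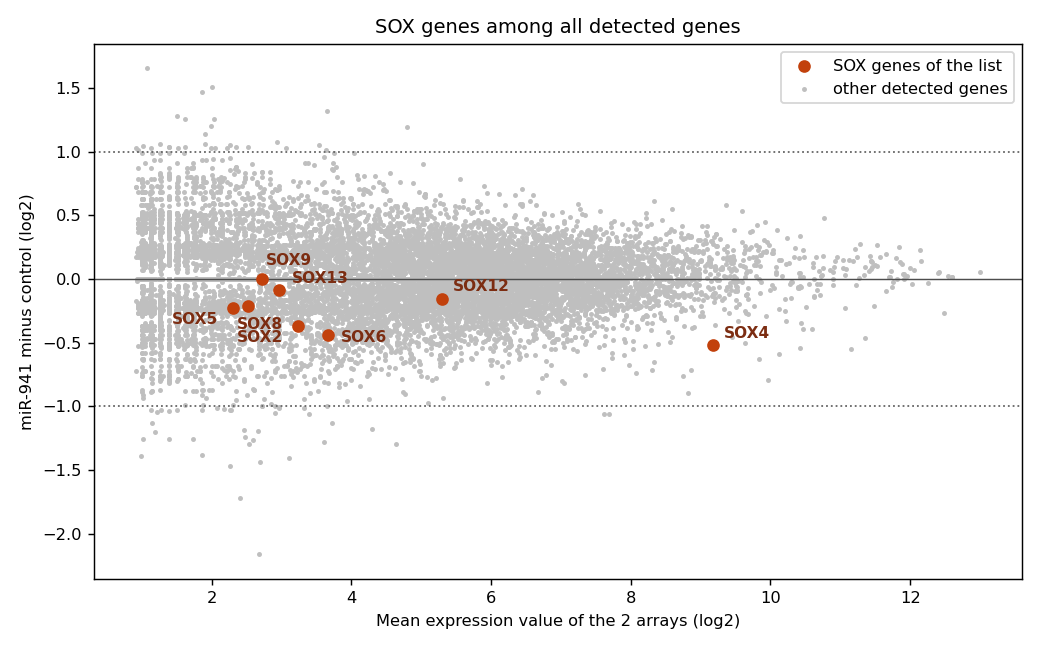
Difference between the arrays (miR-941 minus control, log2) against the mean of the 2 arrays (log2) for all 13150 detected genes in grey and the 8 detected SOX genes in orange, each on its brightest probe set, with dotted lines at 2-fold. The 8 SOX points lie between -0.52 (SOX4) and 0.00 (SOX9), within the grey cloud.

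SOX4, a group C factor of progenitor cells and of many tumours that also acts in the developing mouse kidney, was lower on 5 of its 6 probe sets, all 6 detected. Its brightest probe set, 201417_at, read 8.92 on the miR-941 array and 9.44 on the control array, a log2 difference of -0.52 (0.698 of control). Probe set 201416_at read 8.37 on the miR-941 array and 8.58 on the control array (-0.21). Probe set 213668_s_at read 6.52 on the miR-941 array and 6.73 on the control array (-0.21), and 201418_s_at read 5.21 on the miR-941 array and 5.45 on the control array (-0.25). The 4 brightest readings were thus all lower, by amounts that differ among themselves by more than a factor of 2. The dimmer 1567906_at read 1.57 on the miR-941 array and 1.97 on the control array (-0.40), and 213665_at read 1.76 on the miR-941 array and 1.65 on the control array (0.12), the only SOX4 probe set that was higher. Over the 6 probe sets the median difference was -0.23 ± 0.22 (SD over probe sets, which share 1 hybridisation per array and are not replicates). Differences of all detected probe sets with a mean level above 6 had an SD of 0.22, so -0.52 is more than 1 such SD from 0 and -0.21 is not.

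SOX12, another group C factor, gave opposite directions on its probe sets. Probe set 204432_at read 5.21 on the miR-941 array and 5.37 on the control array (-0.15). Probe set 228358_at read 2.45 on the miR-941 array and 1.83 on the control array (0.63), a 1.55-fold higher reading. The 2 differences straddled 0 with a median of 0.24 ± 0.55 (SD over 2 probe sets), so these arrays give SOX12 no direction.

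SOX2, which sustains neural and pluripotent stem cells, was lower on both of its detected probe sets. Probe set 228038_at read 3.05 on the miR-941 array and 3.42 on the control array (-0.37). Probe set 213721_at read 1.12 on the miR-941 array and 1.85 on the control array (-0.73, 0.605 of control). The median of these 2 was -0.55 ± 0.25 (SD over 2 probe sets). Among the 6106 genes read by several detected probe sets, 17.1% were lower on each of these. The other SOX2 probe sets were below the detection level and went opposite ways, 214178_s_at with 0.72 on the miR-941 array and 0.53 on the control array, and 213722_at with 0.42 on the miR-941 array and 0.63 on the control array.

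Among the group D genes, SOX6, which with SOX5 assists SOX9 in cartilage and also acts in red cell and neuron development, had 8 probe sets, of which 4 were detected. Probe set 228214_at read 3.45 on the miR-941 array and 3.89 on the control array (-0.44). Probe set 227497_at read 2.32 on the miR-941 array and 2.46 on the control array (-0.14), and 227498_at read 1.5001 on both. Probe set 235526_at read 1.09 on the miR-941 array and 0.92 on the control array (0.18). With a mean of 1.00 it was the member probe set just above the detection level, and its control value of 0.917 lay just below that level (0.918). The 4 detected SOX6 probe sets thus held 2 lower, 1 equal and 1 higher reading, with a median of -0.07 ± 0.26 (SD over 4 probe sets). SOX5 was detected on 1 of 4 probe sets, 238009_at, with 2.19 on the miR-941 array and 2.42 on the control array (-0.23). Its probe set 207336_at lay just below the detection level with a mean of 0.87, from 0.64 on the miR-941 array and 1.11 on the control array. SOX13, first known as an islet cell autoantigen, read 2.92 on the miR-941 array and 3.004 on the control array on 209736_at (-0.09). Its probe set 38918_at read 2.22 on the miR-941 array and 2.17 on the control array (0.05). The third SOX13 probe set was not detected and read 0.31 on both.

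The group E genes were SOX8 and SOX9. SOX9, the factor that starts cartilage and testis formation, read 2.72 on both arrays on 202936_s_at, a difference of 0.00 that became -0.06 with each array's median subtracted and -0.0088 with a loess trend removed. Its second probe set, 202935_s_at, read 2.54 on the miR-941 array and 2.07 on the control array (0.47). Neither was lower on the miR-941 array, and the median was 0.24 ± 0.33 (SD over 2 probe sets). SOX8 read 2.42 on the miR-941 array and 2.62 on the control array on its only probe set, 226913_s_at (-0.21). All detected probe sets of SOX8 and SOX9 are of the _s_at kind, which is designed against several transcripts, at times of more than 1 gene, and neither gene has a value once _s_at and _x_at probe sets are left out.

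**Figure D3:**
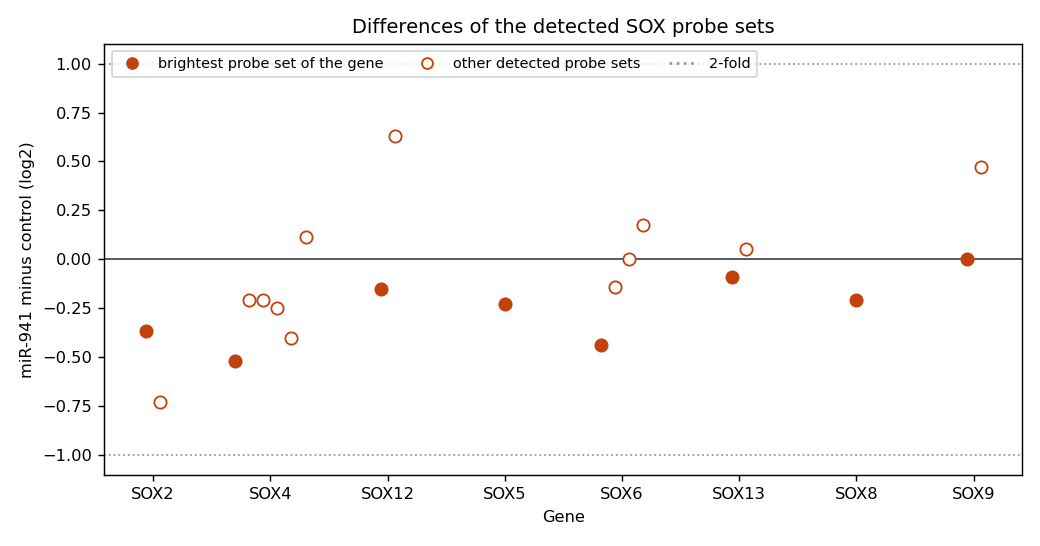
Difference (miR-941 minus control, log2, vertical axis) of each of the 20 detected probe sets of the 8 detected SOX genes; filled points are the brightest probe set of a gene, open points its other detected ones, and dotted lines mark 2-fold. The points of SOX2 all lie below 0, while those of SOX4, SOX12, SOX6 and SOX13 lie on both sides.

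Over all members, 20 of the 34 probe sets were detected, beside 23317 of the 41091 probe sets with 1 symbol in the series. The 20 held 13 lower, 5 higher and 2 equal readings, with a median of -0.18. Among all detected probe sets 43.4% were lower. Only SOX2 at -0.73 and SOX12 at 0.63 had a probe set past 1.5-fold, 2 of 20, beside 7.67% of all detected probe sets. Of the 6 SOX genes with several detected probe sets, 4 had some higher and some lower, where 46.4% of such genes in the series did. The 14 probe sets that were not detected read between -0.13 and 1.11, with 6 higher on the miR-941 array, 2 lower and 6 equal.

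Differences on these arrays can recur as exactly the same value. Of the 20 detected SOX probe sets, 13 had a difference shared to 6 decimals by at least 60 probe sets, counting themselves. The cut of 60 equals the lowest count among the 13, that of SOX9 probe set 202935_s_at. Shares over all detected probe sets were not counted, here or for differences held once. The counts are therefore not read as a trait of SOX genes. The SOX8 difference and that of SOX4 probe set 201416_at were the same number, which 1141 probe sets held. The -0.37 of SOX2 was held by 421 probe sets and the -0.44 of SOX6 by 329. Exactly equal readings, as for SOX9 and SOX11, were held by 11808 probe sets (21.6%). A difference found nowhere else was held by 5 of the 20, among them the -0.52 of SOX4 and the -0.15 of SOX12. Readings of this kind move in steps, so a difference of 0.00 does not show an unchanged mRNA. The SD of all detected probe sets was 0.37 up to a level of 2, 0.39 from 2 to 4 and 0.28 from 4 to 6. Each SOX2, SOX5, SOX6, SOX8, SOX9 and SOX13 difference in the 2 to 4 range was within 1.5 such SDs of 0, while the 0.63 of SOX12 was beyond it. Outside that range, the -0.73 of SOX2 probe set 213721_at (SD 0.37 at its level) was also beyond 1.5 SDs. So was the -0.52 of SOX4 probe set 201417_at (SD 0.22 above a level of 6). The share of all detected probe sets beyond 1.5 SDs was not counted.

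The other SOX genes on the array were read in the same way. Of 19 SOX genes looked up, 12 were detected, where 66.5% of all genes were. All 3 were detected in each of groups D and E, 2 of 3 in B1 and in C, and 1 of 3 in F. SOX15, the only member of group G, was detected, and none of the 2 of B2 or of group H was. These counts describe the precipitates on these arrays, and whether they hold for the line was not tested. SOX3 (B1), a relative of SOX2, read 1.29 on the miR-941 array and 0.76 on the control array (0.53). Its control value lay below the detection level, so SOX3 was counted through the miR-941 array alone and no direction is read from it. SOX7 (F) read 3.12 on the miR-941 array and 3.35 on the control array (-0.22), but its other probe set was higher, for a median of 0.10. SOX10 (E), the neural crest and glial factor, read 1.61 on the miR-941 array and 1.41 on the control array (0.20). SOX15 (G) read 1.19 on the miR-941 array and 1.83 on the control array (-0.64), with both probe sets lower and a median of -0.45. SOX3, SOX10 and SOX15 thus rest on readings below 2. SOX1, SOX14, SOX17, SOX21 and SOX30 were not detected, and their brightest probe sets read between 0.40 and 0.76 on the miR-941 array and between 0.19 and 0.63 on the control array. Of the 4 detected, 2 were higher and 2 lower, with a median of -0.01.

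Noncoding RNAs of SOX loci were near or below the detection level. SOX2-OT, whose intron holds SOX2, read 0.37 on the miR-941 array and -0.03 on the control array. SOX9-AS1 read 0.71 on the miR-941 array and 0.31 on the control array. SOX21-AS1 read 1.03 on the miR-941 array and 1.499 on the control array (-0.47). CASC15, a neighbour of SOX4, read 0.94 on the miR-941 array and 1.34 on the control array (-0.40). ROCR was not named by any probe set with 1 symbol. SOX21-AS1 and CASC15 were the 2 detected, both lower, on levels below 2, where 42.4% of all detected genes were lower.

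Relatives with an HMG box did not share 1 direction. Beside the counts here and in the lists below stand 66.5% of all genes detected. Among the 13150 detected genes, 6095 were higher, 5574 lower and 1481 equal. Of the TCF/LEF genes, which carry Wnt signals to DNA, LEF1 had 0.12, TCF7L2 0.08 and TCF7L1 0.00, and the 6 detected probe sets of TCF7L2 were 3 higher and 3 lower, with a median of -0.01. Of 18 other HMG-box genes 17 were detected, 6 higher and 8 lower, and 3 had equal readings (median 0.00). TOX3 had 0.52 from 1.39 on the miR-941 array and 0.87 on the control array, and the repressor HBP1 had 0.44. The TOX3 control value lay below the detection level, so TOX3 was counted through the miR-941 array alone. UBTF, which drives ribosomal RNA genes, had -0.47, with 2 of its 4 detected probe sets higher, and HMG20B had -0.44, with 1 of 3 higher and a median of -0.15. No gene of either list reached 2-fold.

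Genes known to act with or downstream of SOX factors were read from lists by role, none with a member past 2-fold. Of 12 cartilage matrix genes, targets of SOX9 with SOX5 and SOX6, 5 were detected, 2 higher and 2 lower, and 1 had equal readings (median 0.00). COL9A3 had 0.24, COL11A2 0.23, COL2A1 -0.26 and ACAN, which encodes aggrecan, -0.19 (median 0.00 over 3 detected probe sets), and none of the 5 read above 2 on either array. Of 10 neural progenitor genes 7 were detected, 2 higher, 4 lower and 1 equal (median -0.14). The intermediate filament gene NES had 0.26, POU3F2 (a partner of SOX2) 0.13, PAX6 -0.39 with both probe sets lower, and POU3F3 and HES5 -0.21 each. Of 8 pluripotency genes 3 were detected, LIN28B at 0.02, SALL4 at 0.00 and FGF4 at -0.05, while NANOG read 0.75 on both arrays.

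Of 8 neuronal genes linked to group C factors, 5 were detected, 4 higher and 1 equal, with a median of 0.31 that was 0.12 by the median over detected probe sets. Across the series 66.5% of genes were detected, and 6095 of the 13150 detected genes were higher. Nothing is read from the direction of so few genes. STMN1 had 0.44, the neurofilament gene NEFL 0.39, MEX3A 0.08 and TUBB3, the neuronal tubulin, 0.00. TUBB3 read 7.73 on both arrays. DCX, STMN2 and MAP2, which mark neurons more narrowly, were not detected. Of 19 kidney development genes 16 were detected, 5 higher and 6 lower, and 5 had equal readings (median 0.00). PAX2 had 0.37 from 1.23 on the miR-941 array and 0.86 on the control array, and PAX8 had 0.32, with a median of 0.00 over 3 detected probe sets. The PAX2 control value lay below the detection level, so PAX2 was counted through the miR-941 array alone. EMX2 had -0.47 on 1 probe set and SPRY1, an inhibitor of RET signalling, -0.46, with its 2 probe sets in opposite directions (median 0.01).

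**Figure D4:**
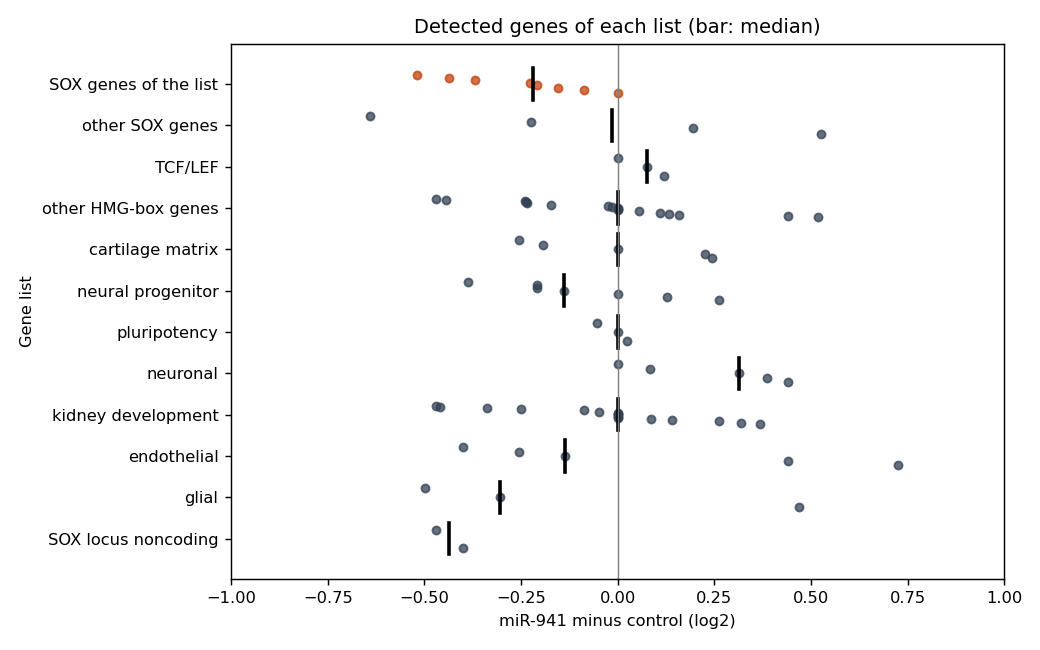
Difference (miR-941 minus control, log2, horizontal axis) of every detected gene of each list, 1 point per gene on its brightest probe set, with a bar at the list's median. The SOX genes run from -0.52 to 0.00, and 6 of the other lists have a median of 0.00 or higher with genes on both sides or at 0.

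The line's own markers and those of other cell types were read in the same way. Shares over all genes were again 66.5% detected and, among the 13150 detected, 6095 higher and 5574 lower. Of 7 genes described in the parent line 5 were detected, NEFL, NEFM, INA, VIM and KRT18, while NEFH and KRT8 were not. NEFL had 0.39, KRT18 0.24, NEFM -0.26 and INA -0.59. Of 10 endothelial genes, the setting of group F, 5 were detected, 2 higher and 3 lower. Their median of -0.14 turned to 0.12 by the median over detected probe sets and to 0.05 with no detection level. VWF had 0.73 from 1.39 on the miR-941 array and 0.66 on the control array, with its other detected probe set equal (median 0.36). On its brightest probe set VWF thus passed the detection level through the miR-941 array alone. PECAM1 had 0.44 with its 2 detected probe sets in opposite directions (median 0.12), EFNB2 -0.40 and DLL4 -0.26. CDH5, CLDN5, VCAM1, TEK and KDR were not detected. The summed level of all 10, detected or not, was 6.33 on the miR-941 array and 6.63 on the control array (log2), and EFNB2 alone read 5.99 on the miR-941 array and 6.39 on the control array. Of 5 glial genes, the setting of SOX10, 3 were detected, GFAP at 0.47, MBP at -0.30 and ERBB3 at -0.50. Each direction rests on the brightest probe set: MBP and ERBB3 each had 2 of 3 detected probe sets higher, with medians of 0.19 and 0.28, and the 2 of GFAP went opposite ways. The brightest GFAP probe set read 1.36 on the miR-941 array and 0.89 on the control array, so it passed through the miR-941 array alone. The summed level of all 5, detected or not, was 3.74 on the miR-941 array and 3.83 on the control array. Of 8 markers of blood, liver, islet, skin and connective tissue, only COL1A1 (-0.24) and KRT5 (-0.37) were detected, and the summed level of all 8, detected or not, was 4.03 on the miR-941 array and 4.15 on the control array.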

How the data were processed

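RNA from immunoprecipitates of 293T cells was measured on 2 arrays, 1 per group. The authors quantified expression with RMA in R, per the labels' protocols, and deposited 1 value per probe set, taken here as log2, because the highest values (13.7 on the miR-941 array, 13.6 on the control array) exceed the natural logarithm of any 16-bit scanner reading. The submitters' processing notes also list affy and MAS5, with no role given, and no versions; centring is not stated there. Values were used as deposited. Of 41091 probe sets with 1 symbol, 41037 were matched through the Entrez identifier to RefSeq (GRCh38.p14). Computation used pandas 2.3.3 and numpy 2.4.6, and a loess trend (span 0.4) used statsmodels 0.14.6. The summary by gene was tested on simulated differences, with a shift larger than any SOX difference. That test does not bear on differences of the size seen for SOX genes. The members and lists were chosen with earlier results of these data known. Named genes are all SOX members, every other SOX gene and SOX locus RNA, and the 2 highest and 2 lowest detected genes of each other list (all where at most 4 were detected). Some genes that were not detected are named too. The number of arrays limits the precision. Alternatives changed the probe set summary, the probe sets kept, the detection level, the scaling and the fold.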

Additional observations from a re-analysis of the deposited data

How the results depend on the processing

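No paired analysis was possible because there is a single array on each side, which also leaves none to drop. The median SOX difference (-0.22) stayed below 0 under all 8 alternatives, from -0.44 to -0.05. The median of all detected genes ran from -0.06 to 0.01 under the same alternatives. Each alternative reuses the same 2 arrays and members chosen with these differences known, so the constant sign is no evidence. The -0.44 is the median of only 3 genes, at the 75th percentile detection level. No SOX gene reached 2-fold or, as the brightest probe set gives it, 1.5-fold. SOX6 changed direction with the mean over all probe sets (0.03), and SOX12 with that mean and with the median over detected probe sets (0.24 each); that median was an alternative chosen after seeing the data. With the detection level at the 75th percentile (3.37), 3 SOX genes were detected, SOX4, SOX6 and SOX12. All 3 were lower on the brightest probe set, but SOX6 and SOX12 are the genes whose direction changed with other summaries. The share of all genes lower at that level was not counted. With each array's median subtracted all 8 were lower, as were 58.7% of all detected genes, and with a loess trend removed all 8 and 49.9%; SOX9, equal as deposited, is the gene that these scalings add.

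The 30 genes at least 2-fold higher and 38 at least 2-fold lower became 4 and 7 at the 75th percentile, 14 and 12 with the mean over all probe sets, and 387 and 378 at 1.5-fold; they were 13 and 51 with array medians subtracted, and 24 and 18 with the median over detected probe sets. The glial median (-0.30) was 0.16 with the mean over all probe sets, and 0.19 both with no detection level and with the median over detected probe sets. The SOX locus noncoding median (-0.44) was 0.00 with no detection level. The causes were not tested. The brightest probe sets of the 8 detected SOX genes had mean levels from 2.31 (SOX5) to 9.18 (SOX4). Differences of all detected probe sets between levels of 2 and 4 had an SD of 0.39. That spread limits what SOX differences in this range can show.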
